A study of Mus musculus with 6 samples.

Results

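Primitive endoderm is the extraembryonic lineage that the inner cell mass forms beside the epiblast, and 10 of its regulators and markers were followed here among the 24083 genes of an RNA-seq table. The 10 genes were chosen by name and not by a threshold on the data: the transcription factors Gata4, Gata6, Sox7, Sox17 and Foxa2, the surface and endocytic markers Pdgfra, Lrp2, Cubn and Dab2, and the nuclear coregulator Cited1, which was counted in neither class. Polyadenylated RNA came from mouse embryonic stem cells in 2 groups, 3 libraries of the R153A genotype of Nanog and 3 libraries of wild-type Nanog (WT). Both groups were kept without added treatment on gelatin in serum medium with the cytokine LIF. The labels give neither the way R153A was introduced nor the culture or clone behind each library, so the p-values measure the spread between these libraries, which may be technical.

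In the mouse embryo, FGF4 from early epiblast cells acts through FGF receptors and the adaptor GRB2 to raise GATA6, while NANOG holds GATA6 down in the epiblast. GATA6 is followed by PDGFRA, SOX17, GATA4 and SOX7 as the lineage matures, and the resulting visceral and parietal endoderm take up maternal proteins through megalin and cubilin and lay down basement membrane. FOXA2 also marks the anterior primitive streak and definitive endoderm, SOX17 the definitive endoderm, and PDGFRA mesoderm and mesenchyme, so none of these genes is restricted to a single lineage.

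Promoter sequence is shown for the 3 members that rose in R153A cells after the expression filter, Foxa2, Lrp2 and Cited1, and for Dab2, which was nearly silent in WT libraries. By symbol, 5 of the 10 genes had RefSeq windows (build GRCm38.p6), these and Pdgfra, and the 250 bases before the start site are printed 5′ to 3′ on the strand of the gene. The build of the expression table is mm9, so the positions refer to the sequences only. Where a symbol had several windows, the window at the GENCODE start of the gene was used. Capitals mark matches to AGATAA or TGATAA for GATA factors, ACAAT for SOX factors or TGTTTAC for FOXA factors, searched on both strands; these strings do not overlap in the printed windows. Foxa2 lies at chr2:148046970-148047219 (minus strand), Lrp2 at chr2:69586030-69586279 (minus strand), Cited1 at chrX:102252182-102252431 (minus strand) and Dab2 at chr15:6299539-6299788 (plus strand).
Foxa2: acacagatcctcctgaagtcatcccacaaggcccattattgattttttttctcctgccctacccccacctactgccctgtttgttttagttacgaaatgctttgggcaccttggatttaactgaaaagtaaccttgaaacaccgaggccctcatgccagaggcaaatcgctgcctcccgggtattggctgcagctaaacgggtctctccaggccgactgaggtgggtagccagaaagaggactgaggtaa
Lrp2: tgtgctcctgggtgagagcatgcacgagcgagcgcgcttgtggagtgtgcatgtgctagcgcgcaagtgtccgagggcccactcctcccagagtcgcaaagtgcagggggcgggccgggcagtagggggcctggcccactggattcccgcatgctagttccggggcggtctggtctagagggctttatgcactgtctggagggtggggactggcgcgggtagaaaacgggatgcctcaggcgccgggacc
Cited1: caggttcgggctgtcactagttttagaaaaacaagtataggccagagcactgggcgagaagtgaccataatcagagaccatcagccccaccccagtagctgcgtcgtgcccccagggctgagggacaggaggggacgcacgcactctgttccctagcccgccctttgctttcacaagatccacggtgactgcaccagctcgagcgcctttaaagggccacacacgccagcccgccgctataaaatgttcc
Dab2: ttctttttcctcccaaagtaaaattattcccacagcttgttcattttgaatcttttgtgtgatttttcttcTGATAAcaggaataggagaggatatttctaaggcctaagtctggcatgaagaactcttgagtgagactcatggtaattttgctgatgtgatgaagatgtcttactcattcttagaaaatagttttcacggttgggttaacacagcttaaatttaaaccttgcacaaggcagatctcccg
The Dab2 window held a single TGATAA, which starts 179 bases before the transcription start, and none of these strings stood in the Foxa2, Lrp2, Cited1 or Pdgfra windows. Among 32817 mouse promoter windows of the same 250 bases, 16.6% held AGATAA or TGATAA, 27.7% held ACAAT and 3.16% held TGTTTAC. A match is a string of letters and does not show binding.

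Levels are in FPKM, which divides the fragments of a gene by its length and by the mapped fragments of the library, a scale on which genes can be compared per length. The FPKM values summed to 372761 to 382086 in R153A libraries and to 360152 to 381782 in WT libraries, and the read depth behind them is unknown. The targeted gene Nanog, a homeodomain factor of the epiblast, was present in every library at 119, 122 and 129 FPKM in R153A cells and 241, 259 and 258 FPKM in WT cells; FPKM per gene cannot show the R153A codon. Stem cell markers fixed for a check of the cell type (Pou5f1, Sox2, Zfp42 and others, 13 in all) summed to 2359 to 2464 FPKM in R153A libraries and 4453 to 5228 FPKM in WT libraries. Dppa5a gave the largest part of that sum, at 931, 919 and 959 FPKM in R153A libraries and 2355, 2375 and 2996 FPKM in WT libraries. Pou5f1 fell by 0.41 on the log2 scale. The cells thus carried the markers of their label, with 11 of the 13 lower in R153A cells, none higher and 2 not passing by limma, and also none higher at an unadjusted p under 0.05. The naive pluripotency genes Klf4, Prdm14 and Esrrb led these falls, by 2.66, 2.60 and 2.12 on the log2 scale. Over all genes tested, 22.3% were called lower. The Dppa4 libraries overlapped between the groups (limma adjusted p = 0.0464). Its call was not made without the filter, without a trend or with some of the libraries left out.

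Of the 10 primitive endoderm genes, 5 reached 1 FPKM in at least 3 libraries and were tested, and the other 5 stayed under 1 FPKM in every library. Foxa2, Lrp2 and Cited1 rose in R153A cells, Sox7 fell, and Gata4 did not pass (limma, Benjamini-Hochberg adjusted p under 0.05 over the 11817 genes tested). In the background, 37.5% of the genes tested were called higher and 22.3% lower, so calls in both directions were common across the transcriptome. Foxa2 passed the filter through R153A libraries only and Sox7 through WT libraries only, so that these genes had to differ to be tested at all. Log2 fold changes below are R153A minus WT of log2(FPKM + 1), which understates the change of genes near or under 1 FPKM. In bulk RNA, fewer cells of a type and less RNA per cell cannot be told apart.

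**Figure D1:**
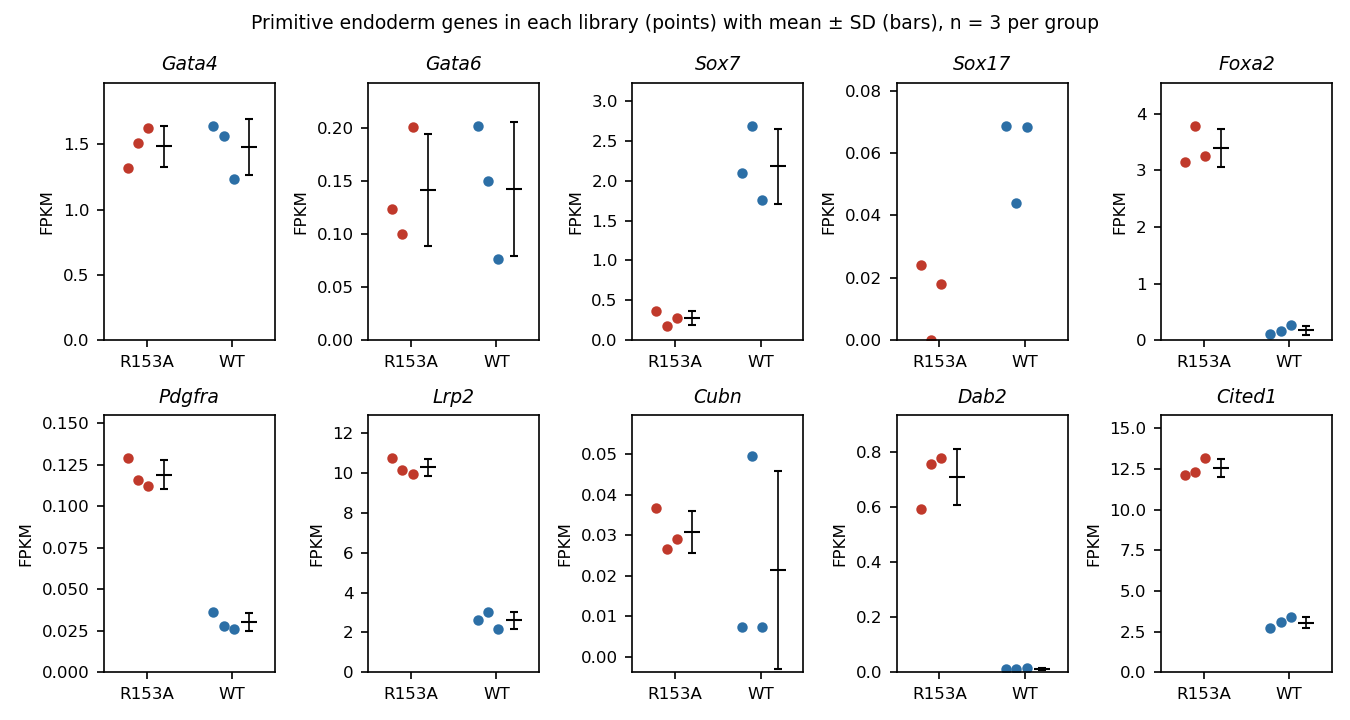
FPKM of the 10 primitive endoderm genes, with an axis of its own for each gene; points are single libraries, and black bars are mean ± SD of 3 libraries, left out for Sox17, which was listed at 0 in 1 library. Foxa2, Pdgfra, Lrp2, Dab2 and Cited1 lie higher in all 3 R153A libraries than in any WT library, Sox7 and Sox17 lie lower, and Gata4, Gata6 and Cubn overlap.

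GATA6 and GATA4 are zinc-finger factors, GATA6 the earliest regulator of primitive endoderm and GATA4 a factor that follows it. Gata6 was at 0.124, 0.100 and 0.202 FPKM in R153A libraries and at 0.202, 0.150 and 0.0766 FPKM in WT libraries. The groups overlapped at a level near the bottom of what the table resolves, and the mean was above that of 37.6% of all genes in R153A cells and 40.5% in WT cells. In a fit without the filter the log2 difference of Gata6 was -0.00085 with a 95% interval from -0.15 to 0.14 (limma adjusted p = 1). Gata4 stood at 1.32, 1.51 and 1.62 FPKM in R153A libraries and at 1.64, 1.57 and 1.23 FPKM in WT libraries. On the log2 scale Gata4 differed by 0.0041 (SE 0.0920, 95% interval -0.20 to 0.21, limma adjusted p = 0.973). Gata6 averaged 0.142 ± 0.0531 FPKM in R153A cells and 0.143 ± 0.0631 FPKM in WT cells, and Gata4 averaged 1.48 ± 0.156 FPKM in R153A cells and 1.48 ± 0.216 FPKM in WT cells (SD, n = 3 each). The libraries of both GATA genes overlapped between the groups.

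SOX7 and SOX17 are SRY-box factors of the SOXF group, SOX17 being made early in primitive endoderm and SOX7 late. Sox7 was at 0.366, 0.183 and 0.283 FPKM in R153A libraries and at 2.09, 2.69 and 1.75 FPKM in WT libraries. All R153A values lay below all WT values, and the mean was 7.85-fold lower in R153A cells (0.278 ± 0.0915 FPKM in R153A and 2.18 ± 0.473 FPKM in WT, SD, n = 3 each). On the log2 scale Sox7 changed by -1.31 (SE 0.112, limma adjusted p = 1.99e-06), by -2.60 with a pseudocount of 0.1 and by -1.98 after rescaling to TPM. Sox7 passed the filter through WT libraries only, and in the fit without the filter its limma adjusted p was 0.00228. At least 1 log2 unit lower and called were 2.31% of the genes tested. Sox17 was listed at 0.0241, 0 and 0.0181 FPKM in R153A libraries and at 0.0687, 0.0441 and 0.0682 FPKM in WT libraries. Its groups did not overlap either, but every value was under 0.1 FPKM. The origin of the 0 listed for Sox17 was not tested. All 6 libraries list Hmgcs1, a sterol synthesis gene in general use, at 0, so a listed 0 may not mean that RNA was absent. Without the filter the log2 difference of Sox17 was -0.064 (95% interval -0.10 to -0.028, limma adjusted p = 0.0266), and 10.3% of all genes were called lower in that fit.

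FOXA2, a forkhead factor of visceral and definitive endoderm, showed the opposite direction. Foxa2 was at 3.15, 3.79 and 3.25 FPKM in R153A libraries and at 0.101, 0.165 and 0.262 FPKM in WT libraries. The R153A mean was 19.3-fold higher (3.40 ± 0.341 FPKM in R153A and 0.176 ± 0.0811 FPKM in WT, SD, n = 3 each), and the mean exceeded that of 62.5% of all genes in R153A cells and 41.9% in WT cells. The size of this fold is uncertain, since the WT values lie near 0.1 FPKM, the lowest level at which a fold was given. On the log2 scale Foxa2 rose by 1.90 (SE 0.0906, limma adjusted p = 2.0e-08), and by 3.70 with a pseudocount of 0.1. Foxa2 passed the filter through R153A libraries only. In the fit without the filter its limma adjusted p was 2.79e-04, and 20.8% of all genes were called higher. Of the genes tested, 5.98% were called higher by at least 1 log2 unit.

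The 5 transcription factors together summed to between 4.98 and 5.58 FPKM in R153A libraries and between 3.39 and 4.61 FPKM in WT libraries, and their makeup differed between the groups. Foxa2 gave 60.5% to 67.8% of that sum in R153A libraries and 2.45% to 7.72% in WT libraries. Sox7 gave 3.29% to 7.35% in R153A libraries and 51.0% to 58.3% in WT libraries. The share of Gata4 lay between 26.4% and 30.2% in R153A libraries and between 33.9% and 40.0% in WT libraries. These shares describe summed FPKM per library and carry no test.

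**Figure D2:**
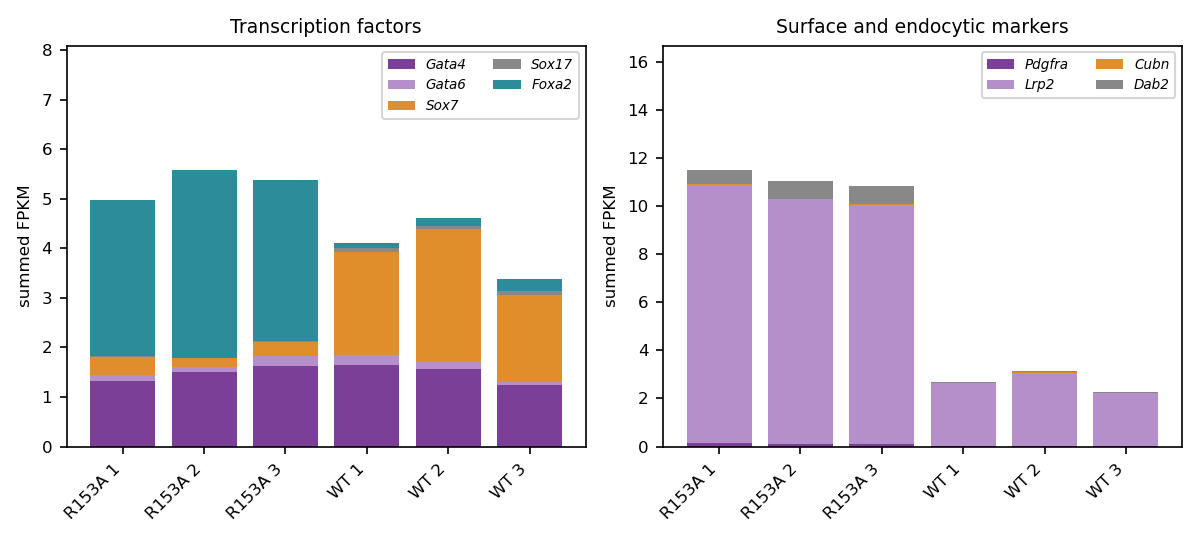
Summed FPKM of the 5 transcription factors (left) and the 4 surface and endocytic markers (right) in each of the 6 libraries, stacked by gene. Foxa2 makes up 60.5% to 67.8% of the transcription factor sum in R153A libraries and Sox7 51.0% to 58.3% in WT libraries, while Lrp2 is at least 91.5% of the surface marker sum in every library.

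Among the surface and endocytic markers, LRP2 (megalin) and cubilin are the large endocytic receptors of visceral endoderm, and DAB2 is the adaptor that links megalin to clathrin. Lrp2 was at 10.7, 10.2 and 9.93 FPKM in R153A libraries and at 2.62, 3.04 and 2.20 FPKM in WT libraries. All R153A values lay above all WT values, and the mean was 3.92-fold higher in R153A cells (10.3 ± 0.418 FPKM in R153A and 2.62 ± 0.419 FPKM in WT, SD, n = 3 each). On the log2 scale Lrp2 rose by 1.65 (SE 0.0883, limma adjusted p = 5.07e-08), and it reached 1 FPKM in every library of both groups.

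Dab2 was at 0.595, 0.758 and 0.779 FPKM in R153A libraries and at 0.0107, 0.0127 and 0.0157 FPKM in WT libraries. The groups were far apart, but no library reached 1 FPKM, so Dab2 was not tested with the filter. Without the filter it rose by 0.75 on the log2 scale (SE 0.0464, 95% interval 0.63 to 0.88, limma adjusted p = 5.97e-04), in a fit that called 20.8% of all genes higher. The difference depends on the pseudocount and was 2.83 with a pseudocount of 0.1 (adjusted p = 2.60e-04, where again 20.8% were called higher and 10.2% lower), so no fold is given against WT values this close to 0.

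Cubn, the cubilin gene, was at 0.0366, 0.0267 and 0.0291 FPKM in R153A libraries and at 0.00748, 0.0497 and 0.00726 FPKM in WT libraries. WT replicate 2 lay above every R153A library and the other WT libraries below, so the groups overlapped. The log2 difference of Cubn without the filter was 0.013 (95% interval -0.036 to 0.062, limma adjusted p = 0.708). Amn, whose product amnionless anchors cubilin at the membrane, stood at 2.32, 2.43 and 1.97 FPKM in R153A libraries and 1.98, 2.38 and 2.51 FPKM in WT libraries, with a log2 fold change of -0.021 (limma adjusted p = 0.856). Under quantile normalization Amn was called lower, with a log2 fold change of -0.23 (limma adjusted p = 0.0474).

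PDGFRA is the PDGF receptor that early primitive endoderm carries at its surface. Pdgfra was at 0.129, 0.116 and 0.112 FPKM in R153A libraries and at 0.0363, 0.0280 and 0.0261 FPKM in WT libraries. The 3 R153A values lay above the 3 WT values, all far under 1 FPKM. Without the filter the log2 difference of Pdgfra was 0.12 (95% interval 0.10 to 0.14, limma adjusted p = 5.90e-04), and 0.75 with a pseudocount of 0.1 (adjusted p = 6.56e-04). Mir7025, which lies within Pdgfra on the same strand in GENCODE M21, was listed at 0.144 FPKM in R153A cells and 0.0226 FPKM in WT cells on average, so reads could be shared between them.

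CITED1, a coregulator without DNA binding of its own that works with CBP and p300, had the highest level of the 10 genes in both groups. Cited1 was at 12.1, 12.4 and 13.2 FPKM in R153A libraries and at 2.71, 3.09 and 3.41 FPKM in WT libraries. The groups did not overlap, and the mean was 4.09-fold higher in R153A cells (12.6 ± 0.552 FPKM in R153A and 3.07 ± 0.354 FPKM in WT, SD, n = 3 each). On the log2 scale Cited1 rose by 1.74 (SE 0.0780, limma adjusted p = 1.28e-08). Its paralogue Cited2 rose as well, at 37.3, 38.5 and 36.4 FPKM in R153A libraries and 8.86, 9.84 and 8.92 FPKM in WT libraries (log2 fold change 1.91, limma adjusted p = 8.11e-10). Cited4, the third paralogue, stood at 3.50, 2.86 and 2.92 FPKM in R153A libraries and 3.23, 2.37 and 3.41 FPKM in WT libraries, with overlapping groups.

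Ordered by level, the 10 genes ran Cited1, Lrp2, Foxa2, Gata4, Dab2, Sox7, Gata6, Pdgfra, Cubn and Sox17 in R153A cells. In WT cells the order was Cited1, Lrp2, Sox7, Gata4, Foxa2, Gata6, Sox17, Pdgfra, Cubn and Dab2. Among neighbours in R153A cells, Sox7 and Gata6 and then Gata6 and Pdgfra had overlapping libraries and the other neighbours did not. Among neighbours in WT cells, Cited1 and Lrp2, Lrp2 and Sox7, Foxa2 and Gata6, Pdgfra and Cubn, and Cubn and Dab2 overlapped.

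Set side by side, 1 of the 5 transcription factors had all R153A values above all WT values (Foxa2), 2 had them all below (Sox7 and Sox17) and 2 overlapped (Gata4 and Gata6). Of the 4 surface and endocytic markers, 3 had all R153A values above (Pdgfra, Lrp2 and Dab2), none had them below and 1 overlapped (Cubn). Over all 24083 genes, 28% lay wholly above and 15% wholly below. An exact permutation test (two-sided) gave p = 0.1 for each of the 7 members without overlap, and 3 libraries against 3 can give no smaller p. The median log2 difference was -0.00085 ± 0.0725 over the transcription factors and 0.44 ± 0.0377 over the surface and endocytic markers (SD over the 3 R153A libraries against the WT mean), beside 0.071 over the 11817 genes tested and 0.0034 over all 24083 genes in the table; the classes include members below the filter. The median of the transcription factors is the value of Gata6, and single factors ran from -1.31 (Sox7) to 1.90 (Foxa2). That of the surface markers lies midway between Pdgfra at 0.12 and Dab2 at 0.75. Gata6, Pdgfra and Dab2 were all under 1 FPKM, and the SDs do not cover the spread between genes. The median of the surface markers ranged from 0.37 under quantile normalization to 1.35 with a pseudocount of 0.1. The genes of the classes were chosen with earlier results known, and no test was made between the classes.

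**Figure D3:**
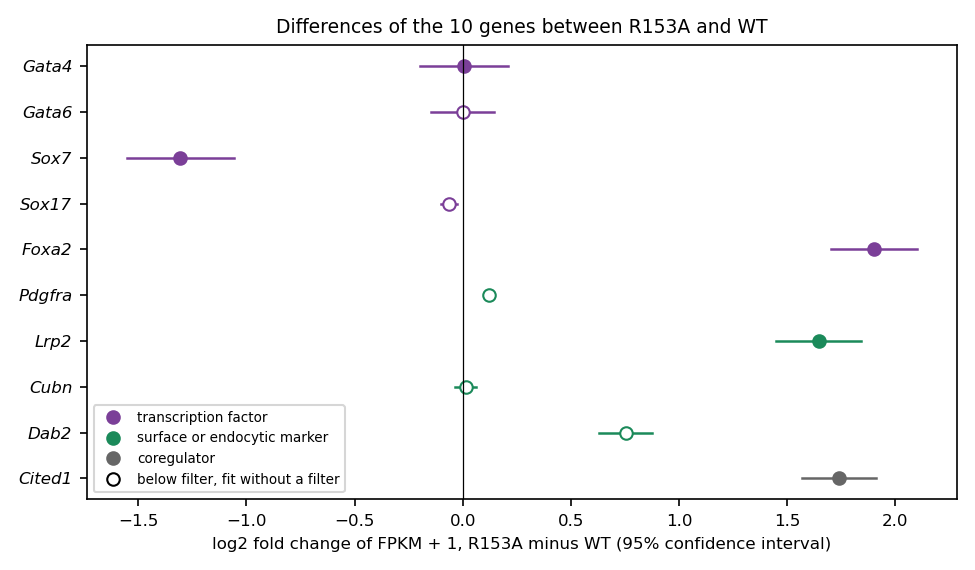
Log2 fold change of FPKM + 1 (R153A minus WT) with its 95% confidence interval from limma for each of the 10 genes; filled points passed the filter of 1 FPKM in 3 libraries, and open points come from the fit of all genes without it. The transcription factors span from -1.31 (Sox7) to 1.90 (Foxa2) with Gata4 and Gata6 near 0, and the surface and endocytic markers lie from 0.013 (Cubn) to 1.65 (Lrp2).

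Other genes of extraembryonic endoderm moved in both directions. The table held 33 of them, and among the 15 that passed the filter 9 rose, 4 fell and 2 were not called, with a median log2 fold change of 0.44 beside 0.071 over all genes tested. Called higher were 60% and lower 26.7%, beside 37.5% and 22.3% over all genes tested. Fst and Pth1r passed the filter only through R153A and Lama1 only through WT, so these counts are a description. Pth1r, the receptor for parathyroid hormone-related peptide in parietal endoderm, was at 6.51, 6.02 and 5.76 FPKM in R153A libraries and 0.821, 0.837 and 0.7097 FPKM in WT libraries (log2 fold change 1.99, limma adjusted p = 4.82e-09). Fst, which encodes the activin antagonist follistatin, had a log2 fold change of 1.85 (limma adjusted p = 1.27e-08).

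The basement membrane genes of this list were divided. Serpinh1, the collagen chaperone HSP47, was at 62.5, 63.6 and 63.6 FPKM in R153A libraries and 21.6, 23.9 and 23.6 FPKM in WT libraries (log2 fold change 1.42, limma adjusted p = 2.93e-09). Col4a1, a chain of type IV collagen, was at 7.70, 6.77 and 7.50 FPKM in R153A libraries and 2.79, 2.80 and 2.31 FPKM in WT libraries (log2 fold change 1.20, limma adjusted p = 3.24e-07). Col4a2, Lamb1, Sparc and Nid2 also rose, whereas the laminin chains Lama1 and Lamc1 and the nidogen gene Nid1 fell. The call for Nid2 was not made under median-ratio scaling. Lama1 was at 0.537, 0.543 and 0.506 FPKM in R153A libraries and 2.64, 2.62 and 2.23 FPKM in WT libraries (log2 fold change -1.19, limma adjusted p = 3.35e-07).

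Of the 33 genes, 17 were under 1 FPKM in every library, among them the serum protein genes Afp, Ttr, Apoa1, Apoa4 and Apob and the endoderm factor Hnf4a. Afp was listed at 0.0206, 0.0607 and 0.169 FPKM in R153A libraries and at 0, 0 and 0.0240 FPKM in WT libraries. Hnf4a was at 0.0543, 0.0178 and 0.0106 FPKM in R153A libraries and 0.0253, 0.0314 and 0.0156 FPKM in WT libraries, with overlapping groups. Apoe, an apolipoprotein gene of visceral endoderm and many other cells, was far above these, at 462, 519 and 450.2 FPKM in R153A libraries and 568, 583 and 644 FPKM in WT libraries, and it fell by 0.33 on the log2 scale (limma adjusted p = 0.00146). Of the whole list, Aqp8 was listed at 0 in all 6 libraries.

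**Figure D4:**
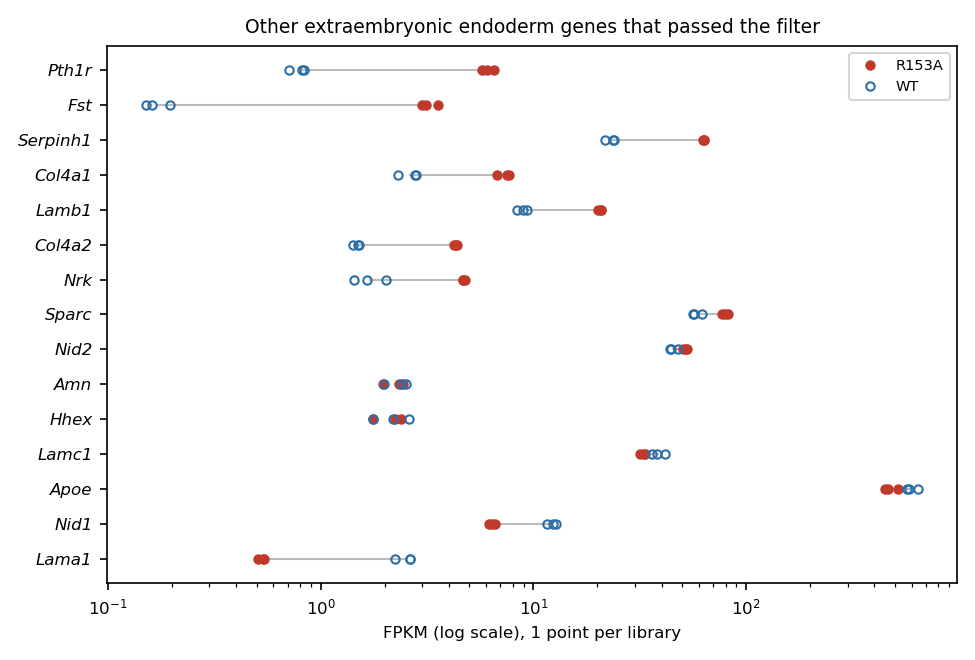
FPKM on a log axis of the 15 other extraembryonic endoderm genes that passed the filter, with 1 point per library (filled, R153A; open, WT) and a grey line between the group means. The genes run from Pth1r and Fst, with the largest log2 fold changes of the list at 1.99 and 1.85, down to Lama1 at -1.19.

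In the FGF and ERK input to the lineage, 18 of 19 genes passed the filter, and 8 rose, 4 fell and 6 were not called. These were 44.4% higher and 22.2% lower, near the 37.5% and 22.3% over all genes tested. Map2k1 was among the 8, a call not made as TPM, under median-ratio scaling, without the filter, without a trend or with the replicate block. Nor was it made with most of the libraries left out in turn. Sos1, not called here, was called lower as TPM, under median-ratio scaling or quantile normalization, without a trend and without the filter. Under median-ratio scaling 7 rose and 7 fell. Fgf4, the ligand, was at 28.7, 28.5 and 29.0 FPKM in R153A libraries and 91.8, 96.7 and 100.3 FPKM in WT libraries (log2 fold change -1.71, limma adjusted p = 5.49e-10). The receptor gene Fgfr1 was at 28.4, 25.0 and 29.3 FPKM in R153A libraries and 12.6, 13.3 and 13.1 FPKM in WT libraries (log2 fold change 1.02, limma adjusted p = 1.87e-07). Fgfr2, the other receptor gene used in this lineage, also rose, and the adaptor gene Grb2 fell by 0.38 on the log2 scale. Of the ERK-induced genes, Dusp6, a phosphatase of ERK, rose by 1.39, Dusp4, another phosphatase of this family, by 0.67 and Egr1, an immediate early factor, by 0.88 on the log2 scale. Etv4, an ETS factor, fell by 0.98 on the log2 scale, while Spry2 and Spry4, inhibitors of the pathway, had overlapping groups. Etv5, a related ETS factor, was at 75.6, 74.4 and 75.8 FPKM in R153A libraries and 77.4, 81.3 and 75.2 FPKM in WT libraries, with a log2 fold change of -0.049 (limma adjusted p = 0.386), and it was called lower under median-ratio scaling.

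Partners of the endocytic receptors all passed the filter, and 9 of 18 rose, none fell and 9 were not called by limma, with none lower at an unadjusted p under 0.05 either. The 9 that rose were 50% of those tested, beside 37.5% called higher and 22.3% lower over all genes tested. With median-ratio scaling 7 were called higher and 5 lower, and with quantile normalization 8 and 5. Lrpap1, whose product RAP chaperones megalin in the endoplasmic reticulum, was at 29.8, 30.8 and 30.2 FPKM in R153A libraries and 16.0, 17.6 and 16.5 FPKM in WT libraries (log2 fold change 0.82, limma adjusted p = 1.96e-07). Lrp5, a WNT coreceptor of the same receptor family, rose by 1.23 and Vldlr, a lipoprotein receptor gene, by 0.89 on the log2 scale. Vldlr passed the filter only through R153A. Dab1, the paralogue of Dab2, was at 3.34, 3.64 and 2.77 FPKM in R153A libraries and 1.54, 2.17 and 2.63 FPKM in WT libraries (limma adjusted p = 0.0091), a call not made under quantile normalization or without the filter.

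PDGF ligands were detected beside the low receptor genes Pdgfra and Pdgfrb. Pdgfrb was at 0.205, 0.269 and 0.237 FPKM in R153A libraries and 0.0918, 0.130 and 0.114 FPKM in WT libraries. Like Pdgfra, Pdgfrb was called higher without the filter (limma adjusted p = 0.00948), in a fit that called 20.8% of all genes higher. Pdgfb was at 5.06, 4.07 and 4.22 FPKM in R153A libraries and 1.78, 1.84 and 2.43 FPKM in WT libraries (log2 fold change 0.86, limma adjusted p = 2.94e-05). Pdgfc rose by 0.40 on the log2 scale, a call not made under quantile normalization, and Pdgfa did not pass. The calls were 2 of 3 tested, or 66.7% higher, beside 37.5% called higher and 22.3% lower over all genes tested.

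Of 13 paralogues of the members, 8 passed the filter, with 6 higher, 1 lower and 1 not called. That is 75% higher and 12.5% lower, beside 37.5% and 22.3% over all genes tested. Sox18, the third SOXF gene, was at 4.50, 3.17 and 4.64 FPKM in R153A libraries and 1.06, 0.872 and 1.10 FPKM in WT libraries, the reverse of the direction in Sox7. On the log2 scale Sox18 rose by 1.33 (SE 0.115, limma adjusted p = 2.09e-06). Foxa3 was at 1.36, 1.20 and 1.60 FPKM in R153A libraries and 0.541, 0.485 and 0.485 FPKM in WT libraries (log2 fold change 0.66, limma adjusted p = 6.32e-05), and it passed the filter only through R153A. Foxa1, under 1 FPKM throughout, was at 0.187, 0.173 and 0.228 FPKM in R153A libraries and 0.0513, 0.0682 and 0.0294 FPKM in WT libraries. Among GATA genes Gata2, a factor of trophectoderm and blood, rose by 0.57 and Gata1, a blood factor, fell by 0.56 on the log2 scale. The call for Gata1 was not made without the filter (limma adjusted p = 0.0685, and 0.0796 with a pseudocount of 0.1).

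Since several members also mark other lineages, the marker lists of those lineages are set beside them. The 15 markers of anterior streak, definitive endoderm and axial mesoderm summed to 161 to 175 FPKM in R153A libraries and 81.5 to 89.9 FPKM in WT libraries, with 3 called higher, 2 lower and 1 not passing of 6 tested. Lefty1, a Nodal antagonist, gave most of that sum, at 130.2, 118 and 126 FPKM in R153A libraries and 27.6, 31.9 and 27.1 FPKM in WT libraries. Of the 6 tested, 50% were called higher and 33.3% lower, beside 37.5% and 22.3% over all genes tested. Nog, a BMP antagonist, rose by 1.30 on the log2 scale, having passed the filter only through R153A, and Otx2, a homeobox factor, fell by 0.60. Eomes, the other gene called lower there, fell by 0.36, a call not made without the filter or with some of the libraries left out. Brachyury (T), which passed in the same way as Nog, was at 4.52, 3.78 and 4.27 FPKM in R153A libraries and 0.0726, 0.101 and 0.176 FPKM in WT libraries. Cer1, Noto, Shh, Gsc, Mixl1, Lhx1, Cxcr4 and Foxd4 stayed under 1 FPKM in every library. Among them Mixl1 was at 0.420, 0.254 and 0.385 FPKM in R153A libraries and 0.0742, 0.0525 and 0.0903 FPKM in WT libraries. Lhx1 also lay wholly higher in R153A libraries and Gsc wholly lower, while the rest overlapped. Without the filter Mixl1 was called higher (limma adjusted p = 0.00979), Gsc lower (0.0487) and Lhx1 not (0.0641). With a pseudocount of 0.1 Lhx1 was called and Gsc was not.

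The 10 mesoderm markers summed to 12.3 to 13.3 FPKM in R153A libraries and 4.39 to 5.32 FPKM in WT libraries, with Mesp1, which marks early mesoderm, listed at 0 in all libraries but 1. Besides T, which passed the filter only through R153A, Snai1, a repressor of E-cadherin, was the only call there, higher in R153A cells by 1.41 on the log2 scale. These were 2 of 3 tested, or 66.7% higher, beside 37.5% called higher and 22.3% lower over all genes tested. The 14 fibroblast and feeder markers summed to 19.9 to 20.5 FPKM in R153A libraries and 10.4 to 13.4 FPKM in WT libraries. Of 7 tested, 5 were higher, none lower and 2 not called by limma, also with none lower at an unadjusted p under 0.05. The 5 were 71.4% of those tested, beside 37.5% called higher and 22.3% lower over all genes tested. Of those called higher, Col1a2 and Acta2 passed the filter only through R153A, and Acta2 was not called under quantile normalization. Median-ratio scaling and quantile normalization each called 1 lower. Col5a1, Col1a1, Col1a2 and Twist1 led with log2 fold changes of 1.28, 0.82, 0.66 and 0.51, and Postn, Dcn, Lum and Fap stayed under 0.3 FPKM. Among the genes below the filter, the fit without it called Col3a1, Pdgfrb, Dcn and Twist2 higher (limma adjusted p = 0.00412, 0.00948, 0.0127 and 0.0496). Postn, Lum and Fap were not called in that fit, which called 20.8% of all genes higher. The 13 trophectoderm markers summed to 439.96 to 475 FPKM in R153A libraries and 122 to 136 FPKM in WT libraries, mostly the keratins Krt8, Krt18 and Krt19, which like Krt7 were called higher and which primitive endoderm and other simple epithelia also express. Of 11 tested, 6 were higher, 3 lower and 2 not called, or 54.5% higher and 27.3% lower beside 37.5% and 22.3% over all genes tested. The 3 lower were Tfap2c, Tead4 and Eomes. Tfap2c was at 20.7, 18.6 and 20.2 FPKM in R153A libraries and 51.7, 57.3 and 57.2 FPKM in WT libraries. Its log2 fold change was -1.44 (limma adjusted p = 7.63e-09), that of Tead4 -1.03 and that of Eomes -0.36. Cdx2, a defining factor of trophectoderm, passed the filter only through R153A, at 2.63, 3.22 and 2.48 FPKM in R153A libraries and 0.139, 0.0749 and 0.137 FPKM in WT libraries (log2 fold change 1.75, limma adjusted p = 4.45e-08). No marker of these 4 lists was at 0 in all 6 libraries, and the part of these cell types in the values of Foxa2, Pdgfra, Lrp2, Dab2 and Cited1 was not tested.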

How the data were processed

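The authors deposited FPKM values for 24083 gene symbols in 6 libraries, 3 R153A and 3 WT, grouped by the sample titles. The build mm9 and the tools edgeR 3.26.8, HTSeq 0.11.2, SAMtools 1.9 and Bowtie2 2.3.4.3 are named, without roles, per the submitters' processing notes. For the tool behind the FPKM values, the annotation and the use of strand, nothing is given in the sources used here. Without strand, reads of overlapping genes on the other strand, as annotated for Gata6, Sox17, Pdgfra, Cubn and Dab2 in GENCODE M21, cannot be told apart. Ratios of low values between libraries showed no common step (at most 0.392% of low genes shared a ratio), so read counts were not recovered and no count test or counting interval is given.

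Values were analysed as log2(FPKM + 1) with limma 3.58.1 in R 4.3.3 (mean-variance trend, two-sided, Benjamini-Hochberg over the 11817 genes with 1 FPKM or more in at least 3 libraries; called at an adjusted p under 0.05). Folds are ratios of mean FPKM, given where every library reached 0.1 FPKM. Lists are described by counts and medians, with no set test. Exact permutation tests used all splits of 3 against 3 for single genes. The fit was tested on simulated data, and figures were drawn with matplotlib 3.10.9. The members, gene lists and tests were chosen with earlier results of these data known. Named were all 10 members, Nanog, and from each other list up to 4 called genes with the largest changes and no overlap between groups; the other genes named in a list, such as Amn, Afp, Hnf4a, Lama1, Fgfr2 and Grb2, were chosen after their values were seen. Some genes of the lists are counted but not reported here by name. Alternatives were pseudocounts of 0.1 and 0.5, no filter, a filter of 5 FPKM, median-ratio scaling, quantile normalization, TPM, robust moderation, limma without a trend, a replicate block and leaving out each library; no filter with a pseudocount of 0.1 was added after seeing the data.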

Additional observations from a re-analysis of the deposited data

How the results depend on the processing

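Foxa2, Lrp2 and Cited1 stayed higher and Sox7 lower, all called, and Gata4 stayed uncalled in every alternative run that tested them, 17 for Lrp2 and Cited1 and 16 for the others (a filter of 5 FPKM kept only Lrp2 and Cited1, so 0 members were called lower there, also none at an unadjusted p under 0.05, and no class median is given for it). The log2 fold change ranged from 1.77 to 3.70 for Foxa2, from 1.496 to 1.94 for Lrp2, from 1.61 to 2.003 for Cited1 and from -2.60 to -1.19 for Sox7, while the adjusted p of Gata4 was lowest under quantile normalization (0.0775). Without a filter, at a pseudocount of 1 or 0.1, 5 members were called higher and 2 lower. The median log2 difference of the surface and endocytic markers was 1.35 with a pseudocount of 0.1, 0.73 with 0.5, 0.88 as TPM and 0.37 under quantile normalization; that of the transcription factors was -0.098 under quantile normalization. Over all genes, 4428 were called higher and 2634 lower, 2901 higher with a filter of 5 FPKM, and 4053 lower under median-ratio scaling. The higher share of calls was 62.7% as deposited, 45.9% under median-ratio scaling and 48.1% under quantile normalization; median-ratio scaling moved the median of all genes from 0.071 to -0.034. Leaving out each library in turn gave 3 members higher and 1 lower every time. Same-numbered libraries did not deviate together (correlations of -0.049, -0.0095 and 0.060), and with the replicate block 4316 genes were called higher and 2560 lower, 3 members higher and 1 lower. The unknown depth limits what can be said of the 5 members under 1 FPKM.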
